A study of Mus musculus with 24 samples.

Results

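Mouse embryonic stem cells lacking the histone methyltransferases MLL1, MLL2 or both were compared after 4 days of retinoic acid, to find genes whose response to losing both proteins differed from the sum of the responses to losing each. The comparison was defined by sample. It used the 12 day 4 libraries of the 24 in the study, in 4 groups of 3 (WT, the single mutants Mll1-KO and Mll2-KO, and the double-KO), and the 12 day 0 libraries for reference. Mll2 was deleted by an inducible Cre recombinase, and Mll1-KO cells were made by CRISPR in the inducible Mll2 line. Mll2-KO and double-KO cells received 800 nM 4-hydroxytamoxifen (4-OHT) for 48 h. No drug was given to the WT or the Mll1-KO group. All 4 groups were then grown on gelatin in 10% serum with 1 µM retinoic acid for 4 days. The labels do not give the number of clones, do not say whether WT is the parental line, and do not say whether the 3 replicates were separate cultures. The p-values therefore measure the spread between these libraries, which may be technical.

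MLL1 (gene Kmt2a) and MLL2 (gene Kmt2b) are paralogous SET-domain enzymes that methylate lysine 4 of histone H3. Both work in complexes with menin, WDR5, RBBP5, ASH2L and DPY30, and both carry a CXXC domain that binds unmethylated CpG dinucleotides. MLL1 is best known for maintaining Hox gene expression, and MLL2 for marking CpG-rich and bivalent promoters in embryonic stem cells. Retinoic acid drives these cells out of pluripotency into several lineages. Paralogues can act redundantly, so that a gene falls only when both are gone, or in 1 pathway, so that the second loss adds little to the first.

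Levels are normalized counts, that is, read counts divided by the size factor of the library, and changes are differences of log2(normalized count + 1). Errors of levels are SD over 3 libraries, and errors of contrasts are SE from limma. Non-additivity was the double-KO change minus both single-mutant changes, each against WT. It is 0 when the changes add on the log2 scale, and negative when the double-KO lay below the sum. A signed value in brackets after the levels of a gene is its non-additivity unless another quantity is named. The additive expectation is the double-KO level that the sum would give. A 4-OHT effect of equal log2 size with and without MLL1 cancels in this contrast, whereas a drug effect that differs with MLL1 cannot be told apart from non-additivity. In the comparison of Mll2-KO or double-KO with WT, the deletion and the drug cannot be told apart.

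The targeted genes were read first. Kmt2a (chr9:44803355-44881296 on mm10) was at 2240, 2030 and 2160 in WT, 56.3, 69.5 and 42.1 in Mll1-KO, 2360, 2440 and 2290 in Mll2-KO, and 88.4, 132 and 92.4 in the double-KO. Both groups without MLL1 were far below the others, and the double-KO libraries lay above those of Mll1-KO (log2 difference 0.89, adjusted p = 2.6e-06). Its non-additivity was 0.75 ± 0.18, adjusted p = 0.0076, a call lost with 1 estimate of spread over all 24 libraries (adjusted p = 0.11), and the sign of this contrast turned on the linear scale (-0.15 of the gene's mean level, adjusted p = 0.075). Kmt2b (chr7:30568858-30588726) was between 2100 and 2720 in all 12 libraries, and a count over the whole gene cannot show removal of exons. Magohb, an exon junction complex gene described earlier as depending on MLL2 (chr6:131284388-131293244), was at 101, 103 and 75.4 in WT, 95.6, 97.1 and 79.9 in Mll1-KO, 1.96, 5.1 and 3.27 in Mll2-KO, and 2.24, 3.07 and 4.56 in the double-KO. Its loss in Mll2-KO was as deep as in the double-KO, and its non-additivity had a 95% interval from -0.92 to 0.92. The day 4 libraries held 10.7 to 17.1 M recovered reads. The first principal component (58.4% of variance) separated Mll2-KO and the double-KO, which had both the Mll2 deletion and 4-OHT, from WT and Mll1-KO. The second (16.8%) separated the groups without MLL1 from those with it.

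Of 19953 genes in the table, 14303 reached 10 normalized counts in at least 3 of the 12 libraries and were tested. Against WT, 5120 genes (35.8%) were called in Mll1-KO, 6537 (45.7%) in Mll2-KO and 7277 (50.9%) in the double-KO at an adjusted p below 0.05. Non-additivity was called for 1951 genes (13.6%), with 1085 above the sum (7.59%) and 866 below it (6.05%). Most of these departures were small, since 1346 were under 1.5-fold and 261 reached 2-fold (127 above, 134 below). The median over all genes tested was 0.00075. Without the second Mll2-KO library the number called was 1269, and with 1 estimate of spread over all 24 libraries it was 1000. Among the genes described below, the calls lost in the latter fit included those of Fam189a1, Rnf150, Prnd, Wnt7a, Actg2, Muc13, Ctso, Runx2, Pamr1, Usp17la, Apoa1, Zscan4a, Scd3, Xist, Sfrp5, Rbp4, Tenm2, Myh11, Hoxa7, Pbx3, Nrip1, Aldh1a2, Zic1, Dcn, Tll1, Eya1, Igfbp4, Intu, Eml5, Gulp1, Inhba, Insig1 and Thbd. On the linear scale the lost calls included those of Spink1, Hoxa7, Tfcp2l1, Smarca1, Dhrs7, Intu, Eml5 and Gulp1.

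**Figure D1:**
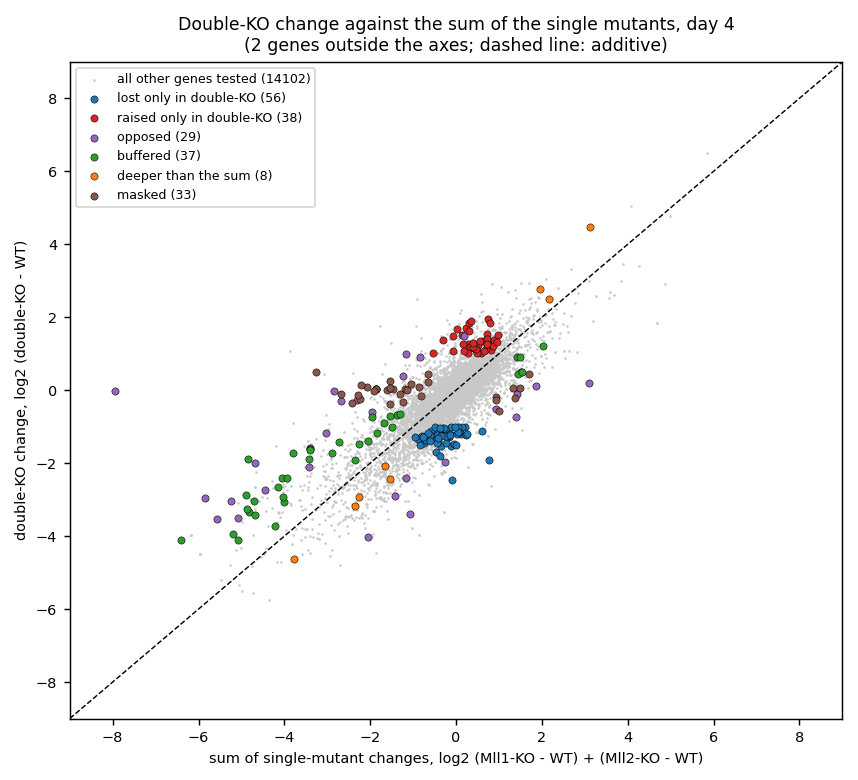
Each point is 1 of 14303 genes at day 4, with the sum of the single-mutant changes on the horizontal axis and the double-KO change on the vertical axis, both log2 against WT. Colours mark the 6 patterns (56, 38, 29, 37, 8 and 33 genes), grey all other genes, and 2 genes lie outside the axes. Genes lost only in the double-KO lie below -1 on the vertical axis, and most buffered genes lie above the line of additivity at the left.

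Genes with called non-additivity were sorted by limits of 1.5-fold and 2-fold. Lost only in the double-KO were 56 genes (0.392% of those tested), raised only 38 (0.266%), opposed 29 (0.203%), buffered 37 (0.259%), deeper than the sum 8 (0.0559%) and masked 33 (0.231%). The remaining 1750 called genes (12.2%) met no definition. Of these, 336 were called in neither single mutant, 363 in Mll1-KO alone, 472 in Mll2-KO alone and 579 in both, and 1318 departed by under 1.5-fold. The patterns were read from the same fit as the contrast, so values of their members below describe the genes that met each definition and are no further test of it.

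Promoters of 4 members are shown because the CXXC domains of both proteins read CpG, with each CG in capitals. They belong to the named members with the lowest adjusted p in 4 patterns that had a RefSeq entry, and cover the 250 bases before the start on GRCm38.p6, 5′ to 3′ on the strand of the gene. Raver2 (lost only in the double-KO, chr4:101068788-101069037, plus strand) holds 33 CG. Serpinb9b (raised only, chr13:33027164-33027413, plus strand) holds 2, Cttnbp2 (opposed, chr6:18514870-18515119, minus strand) 23, and Zscan4f (buffered, chr7:11397665-11397914, plus strand) 3. Over the 11383 tested genes with such a window the median was 16, with quartiles at 9 and 23. Raver2 thus lies above the upper quartile of these genes, and both Serpinb9b and Zscan4f below the lower one. These 11383 were 79.6% of the genes tested, themselves just under the 80% required for a comparison, so the places of the 4 promoters are descriptions only. A comparison by pattern was void, since only 42 of 56 lost-only genes (75%) and 25 of 37 buffered genes (67.6%) had a window, under the 80% required.
Raver2: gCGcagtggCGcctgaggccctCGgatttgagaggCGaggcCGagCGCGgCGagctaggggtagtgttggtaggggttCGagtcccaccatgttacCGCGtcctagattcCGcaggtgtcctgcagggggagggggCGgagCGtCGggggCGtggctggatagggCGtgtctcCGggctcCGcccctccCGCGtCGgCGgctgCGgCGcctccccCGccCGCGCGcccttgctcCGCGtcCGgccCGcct
Serpinb9b: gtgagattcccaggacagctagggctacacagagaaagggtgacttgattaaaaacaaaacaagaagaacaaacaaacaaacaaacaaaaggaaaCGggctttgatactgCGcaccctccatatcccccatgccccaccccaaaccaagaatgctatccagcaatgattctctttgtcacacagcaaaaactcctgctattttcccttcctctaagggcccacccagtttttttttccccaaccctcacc
Cttnbp2: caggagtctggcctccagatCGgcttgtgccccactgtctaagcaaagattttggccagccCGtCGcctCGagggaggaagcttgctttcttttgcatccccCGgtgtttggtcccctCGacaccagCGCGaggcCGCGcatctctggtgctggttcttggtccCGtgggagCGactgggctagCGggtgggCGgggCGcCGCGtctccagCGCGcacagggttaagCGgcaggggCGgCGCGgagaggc
Zscan4f: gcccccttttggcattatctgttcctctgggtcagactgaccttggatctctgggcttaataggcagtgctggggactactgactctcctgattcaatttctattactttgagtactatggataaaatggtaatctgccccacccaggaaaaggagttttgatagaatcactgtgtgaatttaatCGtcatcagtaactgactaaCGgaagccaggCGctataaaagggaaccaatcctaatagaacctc

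The 56 genes lost only in the double-KO were within 1.5-fold of WT in each single mutant and at least 2-fold lower in the double-KO. Their median changes were -0.11 in Mll1-KO, -0.30 in Mll2-KO and -1.23 in the double-KO, and their median level was 194 in WT and 89.1 in the double-KO. Non-additivity ran from -0.32 to -2.70 with a median of -0.90, and 25 genes passed 2-fold. In all 56 the 3 double-KO libraries lay below the other 9, which follows largely from the definition. The double-KO lay outside the other libraries, in either direction, in 726 of the 1750 called genes without a pattern and 1475 of 12352 genes not called. Of the 56, 23 were called lower in Mll2-KO (20.3% over all genes), 11 lower (19.2% over all genes) and 3 higher (16.5%) in Mll1-KO. In neither single mutant 31 were called, which the 1.5-fold limit favours, beside 336 of those 1750 and 5111 of those 12352 genes.

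Mef2c, a MADS-box transcription factor of muscle, vascular and neural lineages (chr13:83504034-83667080), had the largest departure among named members. It was at 44.7, 37.1 and 49.5 in WT, 68.9, 51.9 and 63.1 in Mll1-KO, 30.4, 24.5 and 32.7 in Mll2-KO, and 5.6, 9.2 and 6.84 in the double-KO. The double-KO libraries stood apart from all others, with a mean of 7.21 ± 1.83 against an additive expectation of 40.7 (-2.37 ± 0.35, adjusted p = 6.8e-05). Raver2, a ribonucleoprotein that binds polypyrimidine tract-binding protein (chr4:101068983-101152370), was at 278, 291 and 285 in WT, 297, 309 and 351 in Mll1-KO, 242, 268 and 250 in Mll2-KO, and 91.8, 121 and 89 in the double-KO. The single mutants lay near WT and the double-KO at 0.358 times the expectation (-1.50 ± 0.15, adjusted p = 4.7e-07). Chic1, a palmitoylated membrane protein gene on the X chromosome near Xist (chrX:103356476-103396092), was at 449, 366 and 385 in WT, 374, 422 and 380 in Mll1-KO, 382, 387 and 345 in Mll2-KO, and 151, 113 and 147 in the double-KO. Its changes were -0.03 in Mll1-KO and -0.10 in Mll2-KO, with libraries that overlapped WT, and the departure was -1.41 ± 0.14, adjusted p = 4.8e-07.

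Secreted antagonists of developmental signals were among the members. Hhip, which binds Hedgehog ligands (chr8:79965851-80058006), was at 120, 137 and 167 in WT, 118, 106 and 143 in Mll1-KO, 148, 141 and 125 in Mll2-KO, and 51.5, 59.8 and 42.2 in the double-KO. Sfrp2, a secreted Wnt antagonist (chr3:83766321-83774316), was at 125, 131 and 123 in WT, 143, 127 and 112 in Mll1-KO, 146, 111 and 132 in Mll2-KO, and 57.1, 53.7 and 58.2 in the double-KO. In both genes the single-mutant libraries overlapped those of WT and the double-KO libraries lay below all of them (Hhip -1.22 ± 0.22, adjusted p = 0.00058, and Sfrp2 -1.19 ± 0.19, adjusted p = 0.00018). Phf19, a Polycomb accessory protein (chr2:34893757-34914026), was at 42.7, 51.1 and 44.8 in WT, 54.9, 82.8 and 72.9 in Mll1-KO, 35.3, 38.7 and 33.8 in Mll2-KO, and 31.3, 13.8 and 16 in the double-KO (-1.45 ± 0.35, adjusted p = 0.0075). Here the first double-KO library came close to the lowest Mll2-KO library.

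The other named members covered several functions. Rnf152, a lysosomal E3 ubiquitin ligase, was at 56.5 to 80.3 in WT, 90 to 95.3 in Mll1-KO, 66.6 to 89.7 in Mll2-KO and 24.6 to 39.9 in the double-KO (-1.71). Dhdh, a dihydrodiol dehydrogenase, was at 68.3 to 80.3 in WT, 61.7 to 84.4 in Mll1-KO, 46.1 to 62.2 in Mll2-KO and 19.9 to 27.4 in the double-KO (-1.23). In both, the double-KO range lay below the range of each other group. Rnf150, a RING finger protein, was higher in Mll1-KO (log2 0.57) and lower in Mll2-KO (-0.53), and the double-KO was lower still, at 105 to 163 in WT, 177 to 221 in Mll1-KO, 80.7 to 100 in Mll2-KO and 53.6 to 57.1 in the double-KO. Bmerb1 was at 81.3 to 95.2 in WT, 88.3 to 118 in Mll1-KO, 69.8 to 93.1 in Mll2-KO and 29.1 to 44.8 in the double-KO (-1.34). Fam189a1 was at 56.5 to 69.1 in WT, 75.9 to 86.9 in Mll1-KO, 49.9 to 61.1 in Mll2-KO and 24.5 to 34.2 in the double-KO (-1.23). Just inside the 2-fold limit were Tll1, Eya1 and Kif26a (double-KO changes -1.0004, -1.01 and -1.01), and just outside it were Dhrs7, Mppe1 and Igfbp4 (-0.99, -0.98 and -0.97). At the 1.5-fold limit Phf19 (Mll1-KO change 0.58), Mef2c (Mll2-KO change -0.57) and Prkcb (Mll1-KO change 0.57) lay just inside, and Intu, Eml5 and Gulp1 (Mll2-KO changes -0.59, -0.60 and -0.60) just outside.

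**Figure D2:**
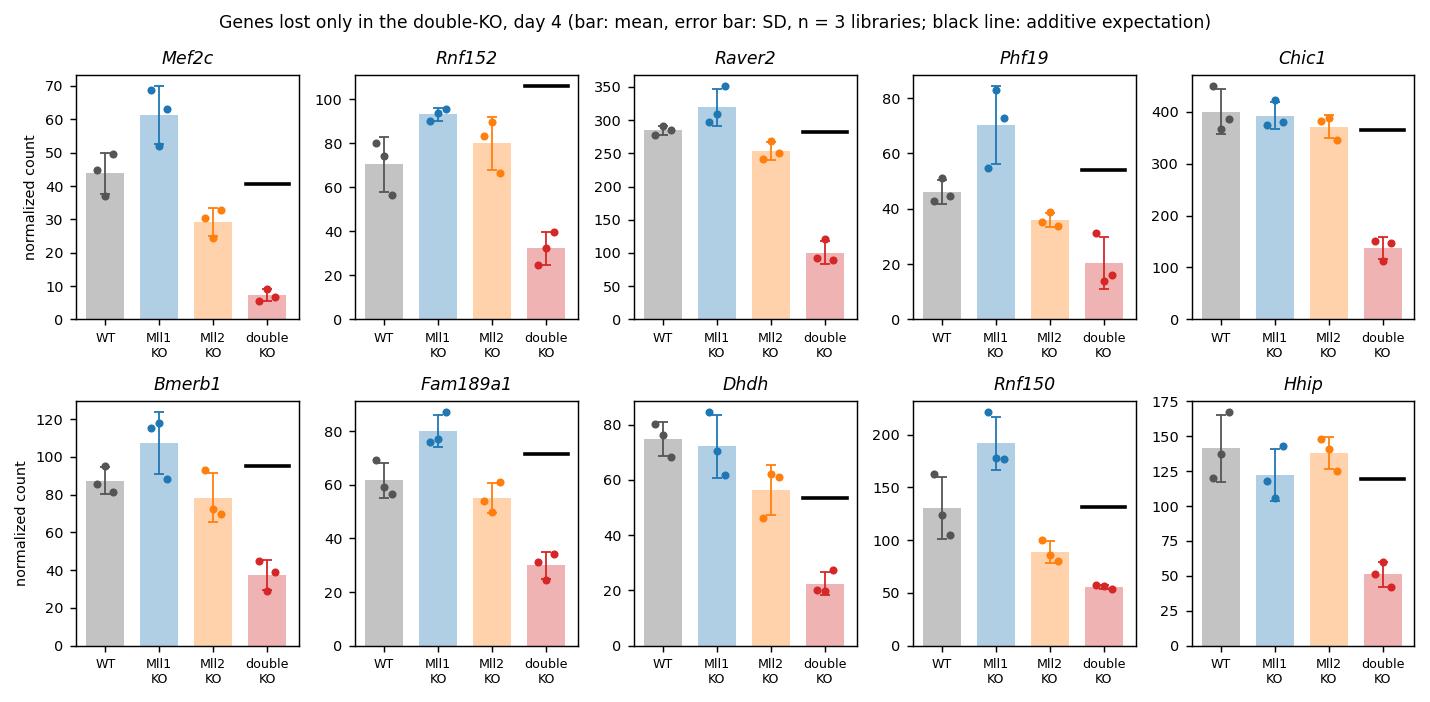
Normalized counts at day 4 of the 10 genes named as lost only in the double-KO, with points for the 3 libraries of each group, bars for the mean, error bars for the SD and a black line for the additive expectation of the double-KO. In every panel the double-KO points lie below the points of the other 3 groups and the double-KO mean lies below the black line.

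The 38 genes raised only in the double-KO mirrored this pattern, with median changes of 0.22 in Mll1-KO, 0.34 in Mll2-KO and 1.28 in the double-KO, and a median level of 134 in WT and 330 in the double-KO. Of these, 14 were called higher in Mll1-KO (16.5% over all genes) and 20 in Mll2-KO (25.4%). Serpinb9b, a serine protease inhibitor (chr13:33027416-33041884), was at 225, 208 and 185 in WT, 187, 178 and 222 in Mll1-KO, 286, 241 and 297 in Mll2-KO, and 769, 767 and 771 in the double-KO. The double-KO level was 2.96 times the expectation (1.56 ± 0.14, adjusted p = 5.2e-08), and the Mll2-KO libraries were already above those of WT. Prnd, the prion-like protein doppel (chr2:131950861-131956130), was at 60, 69.2 and 63.6 in WT, 61.9, 51.9 and 67.3 in Mll1-KO, 55.9, 38.7 and 76.4 in Mll2-KO, and 169, 173 and 162 in the double-KO. Single mutants and WT overlapped, and the departure was 1.69 ± 0.26, adjusted p = 0.00011.

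Actins of smooth muscle appeared in this pattern. Actg2, the enteric smooth muscle actin (chr6:83512905-83536265), was at 74.2, 57.1 and 66 in WT, 70.3, 83.9 and 96.8 in Mll1-KO, 73.5, 39.7 and 86.2 in Mll2-KO, and 220, 261 and 236 in the double-KO. Acta2, the vascular smooth muscle actin (chr19:34241090-34255590), was at 13900, 11600 and 13300 in WT, 11500, 11200 and 14400 in Mll1-KO, 16800, 14300 and 18700 in Mll2-KO, and 32900, 31700 and 27800 in the double-KO. Both genes had the double-KO above all other libraries (Actg2 1.56 ± 0.28, adjusted p = 0.00057, and Acta2 0.96 ± 0.12, adjusted p = 6.4e-06). Wnt7a, a Wnt ligand, was at 27.1 to 30.5 in WT, 25.3 to 39.7 in Mll1-KO, 18.6 to 34.9 in Mll2-KO and 66.1 to 104 in the double-KO (1.57). Tubb3, a neuronal beta-tubulin, was at 135 to 148 in WT, 103 to 194 in Mll1-KO, 172 to 213 in Mll2-KO and 307 to 382 in the double-KO (0.92). Gna15, a G protein alpha subunit, was at 11 to 23.4 in WT, 6.62 to 21.1 in Mll1-KO, 17.5 to 32.3 in Mll2-KO and 58.2 to 62.7 in the double-KO, which gave a departure of 1.66 ± 0.49, adjusted p = 0.026. The call of Gna15 was lost without WT replicate 1 or 3, Mll1-KO replicate 2 or Mll2-KO replicate 2 or 3 (adjusted p of 0.071, 0.059, 0.081, 0.05 and 0.067).

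In 29 opposed genes, loss of 1 protein moved the gene in opposite directions depending on whether the other was present, by 1.5-fold or more each way. The Mll1 effect reversed in 26 of them, the Mll2 effect in 10 and both in 7. Non-additivity was positive in 18 and negative in 11, and 9 of the 29 are unnamed gene models. Cttnbp2, a cortactin-binding protein of neurons (chr6:18366478-18514843), showed both reversals, at 113, 108 and 113 in WT, 191, 167 and 181 in Mll1-KO, 174, 197 and 191 in Mll2-KO, and 88.4, 117 and 105 in the double-KO. The single losses raised it by 0.68 and 0.74, and the double-KO overlapped WT (log2 -0.12) against an expectation of 301 (-1.54 ± 0.17, adjusted p = 1.2e-06). Runx2, the transcription factor of bone formation (chr17:44495987-44814797), had the same form at a lower level, at 35.6, 25.1 and 29.5 in WT, 71.7, 59.6 and 42.1 in Mll1-KO, 71.5, 48.9 and 57.8 in Mll2-KO, and 30.2, 38.3 and 29.7 in the double-KO. Again the double-KO overlapped WT and lay below every library of the single mutants (-1.74 ± 0.32, adjusted p = 0.00071).

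In other opposed genes the double-KO lay above a single mutant. Entpd3, an ectonucleotidase (chr9:120539818-120568327), was at 45.7, 55.1 and 51.8 in WT, 43.6, 24.3 and 28 in Mll1-KO, 9.8, 8.15 and 15.3 in Mll2-KO, and 39.2, 44.5 and 73 in the double-KO. The Mll2-KO libraries were below all others and the double-KO overlapped WT, so that Mll2 loss changed Entpd3 by -2.14 with MLL1 present and by 0.68 in its absence (2.82 ± 0.40, adjusted p = 3.2e-05). The rise in the absence of MLL1 was the weaker part, since the double-KO libraries overlapped those of Mll1-KO (limma adjusted p = 0.042). Muc13, a transmembrane mucin of epithelia (chr16:33794037-33819934), was at 123, 111 and 128 in WT, 25.3, 60.7 and 43.5 in Mll1-KO, 172, 146 and 157 in Mll2-KO, and 259, 238 and 228 in the double-KO. Loss of Mll1 changed Muc13 by -1.55 with MLL2 present and by 0.61 without it (2.16 ± 0.27, adjusted p = 6e-06). Sprr1a, a cornified envelope protein, was at 57.9 to 77.8 in WT, 32.3 to 43.5 in Mll1-KO, 10.2 to 19.6 in Mll2-KO and 23 to 34.2 in the double-KO, with its lowest libraries in Mll2-KO.

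In Ctso, Gbp7 and Ccdc3, Mll1 loss raised the gene alone and lowered it together with Mll2 loss. Ctso, a cathepsin protease (chr3:81932601-81956725), was at 142, 99.2 and 100 in WT, 167, 192 and 184 in Mll1-KO, 14.7, 12.2 and 22.9 in Mll2-KO, and 6.72, 4.6 and 6.84 in the double-KO (-1.97 ± 0.34, adjusted p = 0.00031). Its 4 groups did not overlap, with Mll1-KO highest and the double-KO lowest. Gbp7, an interferon-inducible guanylate-binding protein, was at 42.4 to 62.2 in WT, 90 to 109 in Mll1-KO, 9.8 to 12.2 in Mll2-KO and 1.14 to 7.83 in the double-KO (-2.32). Ccdc3, a secreted coiled-coil protein, was at 25.9 to 40.6 in WT, 49.7 to 73.1 in Mll1-KO, 12.7 to 16.4 in Mll2-KO and 6.13 to 9.12 in the double-KO (-1.71). In all 3 genes every double-KO library was under 10 normalized counts.

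**Figure D3:**
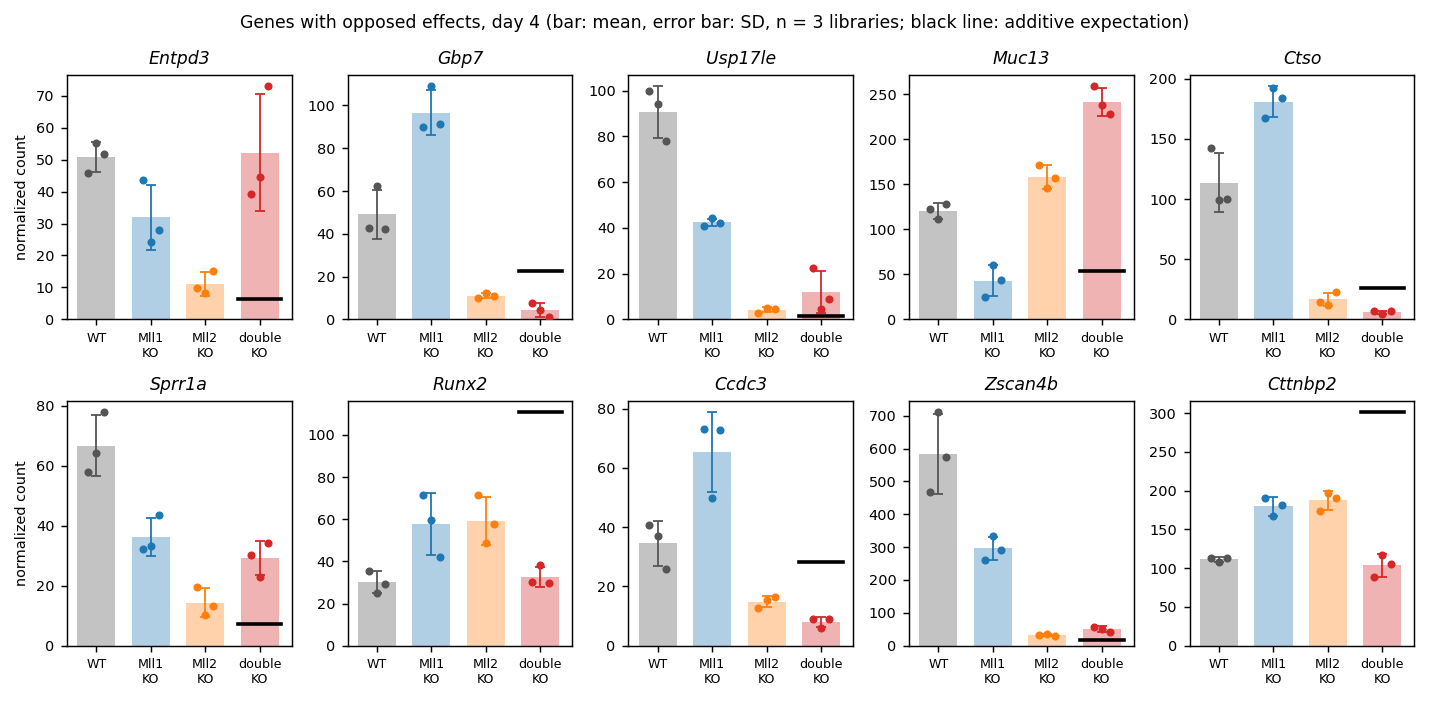
Normalized counts at day 4 of the 10 genes named as opposed, drawn as for the genes lost only in the double-KO. Runx2 and Cttnbp2 are high in both single mutants and at the WT level in the double-KO, Muc13 is low in Mll1-KO, and Gbp7, Ctso and Ccdc3 are highest in Mll1-KO and lowest in the double-KO.

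Buffered genes came from a set of 123 genes called lower, by 1.5-fold or more, in both single mutants. For 74 of them (60.2%) non-additivity was not called, 31 were buffered, 13 opposed and 5 deeper than the sum. A further 47 genes were higher in both, of which 34 (72.3%) were not called, 6 were buffered, 4 opposed and 3 deeper. Both single-mutant changes and the contrast use the same WT libraries, so a high WT value enters all of them. Without the second WT library 21 genes were buffered in place of 37. In 23 of the 31 buffered falls the double-KO was no farther from WT than the larger of the single changes.

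Pamr1, a peptidase-domain protein of regenerating muscle (chr2:102550012-102643041), was at 48.8, 48.1 and 62.4 in WT, 15.5, 14.3 and 15.4 in Mll1-KO, 15.7, 12.2 and 19.6 in Mll2-KO, and 10.1, 16.9 and 14.8 in the double-KO. The 3 mutant groups overlapped and all lay below WT, against an expectation of 3.96 for the double-KO (1.56 ± 0.40, adjusted p = 0.011). Ap1m2, the epithelial clathrin adaptor subunit (chr9:21294275-21312337), was at 299, 302 and 340 in WT, 158, 162 and 149 in Mll1-KO, 102, 95.8 and 86.2 in Mll2-KO, and 112, 138 and 104 in the double-KO. Here the double-KO lay between the single mutants and above the expectation of 46.7 (1.31 ± 0.17, adjusted p = 9.8e-06). Apoa1, the main apolipoprotein of high-density lipoprotein and a visceral endoderm product (chr9:46228580-46230466), was at 357, 437 and 449 in WT, 38, 55.2 and 46.3 in Mll1-KO, 204, 200 and 204 in Mll2-KO, and 73.9, 70.5 and 52.5 in the double-KO. Its double-KO lay near Mll1-KO, the lower of the single mutants, and above the expectation of 22.1 (1.51 ± 0.21, adjusted p = 2.4e-05). Scd3, a stearoyl-CoA desaturase, was at 84.3 to 99.2 in WT, 36.5 to 57.7 in Mll1-KO, 19.6 to 25.5 in Mll2-KO and 22.4 to 30.7 in the double-KO (1.15). Chit1, a chitinase, was at 44.7 to 64.2 in WT, 16.6 to 28 in Mll1-KO, 6.86 to 12.2 in Mll2-KO and 9.2 to 26.2 in the double-KO (1.76). The call of Chit1 was lost without the second WT library (adjusted p = 0.053) and without the third double-KO library (0.055).

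The Zscan4 genes, which mark the 2-cell-like state that arises in a small share of embryonic stem cells, supplied 4 of the 10 named buffered genes and 1 of the 10 named opposed genes. Zscan4f (chr7:11397915-11402318) was at 1050, 1680 and 1330 in WT, 636, 644 and 593 in Mll1-KO, 76.4, 93.8 and 122 in Mll2-KO, and 152, 120 and 147 in the double-KO. It fell in both single mutants, and the further loss of MLL1 changed it by 0.53 with MLL2 absent and by -1.09 with MLL2 present. The expectation was 44.4 and the double-KO level 139.6 ± 17.6 (1.62 ± 0.20, adjusted p = 4.5e-06). Zscan4c (double-KO 83.3 to 103, expectation 32.7), Zscan4d (33.1 to 52.6, expectation 17.8) and Zscan4b (41.1 to 58.2, expectation 16.1) had the same order of group means, with WT highest and Mll2-KO lowest. So had Zscan4a and the deubiquitinase genes Usp17la and Usp17le, at lower counts. The calls of Zscan4a and Usp17la were lost in 14 and 13 of 24 alternatives, with an adjusted p of up to 0.14 and 0.12. They were lost on leaving out WT replicate 2 or 3, any Mll1-KO library, Mll2-KO replicate 2 or double-KO replicate 1 in both genes, Mll2-KO or double-KO replicate 3 in Zscan4a, and WT replicate 1 or double-KO replicate 2 in Usp17la. These genes are near-identical copies, so how reads were divided between them is uncertain and they are not independent of each other.

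**Figure D4:**
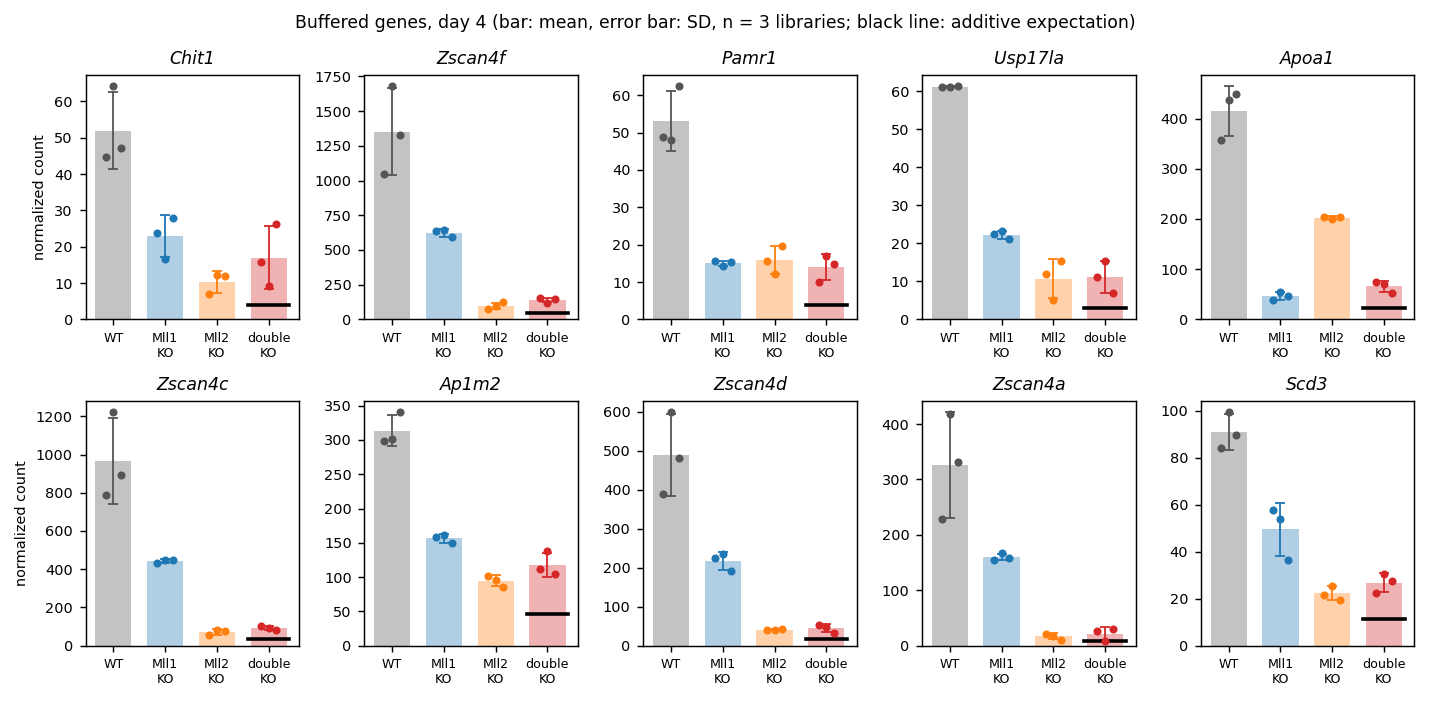
Normalized counts at day 4 of the 10 genes named as buffered, drawn as for the genes lost only in the double-KO. In every panel the WT mean is highest and the double-KO mean lies above the black line of the additive expectation.

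In 8 genes both single mutants moved the same way and the double-KO went farther than the sum. Xist, the noncoding RNA of X inactivation (chrX:103460366-103483254), was at 24.4, 15 and 20 in WT, 61.9, 44.1 and 53.3 in Mll1-KO, 67.6, 66.2 and 67.6 in Mll2-KO, and 386, 494 and 484 in the double-KO. The double-KO libraries were far above all others and above the expectation of 178 (1.342 ± 0.25, adjusted p = 0.00075). Tsix overlaps Xist on the other strand, and whether the counting used strand is not given in the sources used here. Rbp4, the plasma retinol carrier (chr19:38116629-38125281), was at 1860, 2190 and 2320 in WT, 924, 1050 and 952 in Mll1-KO, 319, 366 and 313 in Mll2-KO, and 83.9, 78.2 and 93.5 in the double-KO (-0.84 ± 0.12, adjusted p = 4.2e-05). Its 4 groups did not overlap. On the linear scale the sign reversed (1.02 of the gene's mean level, adjusted p = 1.1e-07), so the falls in normalized counts themselves were less than additive. Sfrp5, a secreted Wnt antagonist, was at 992 to 1260 in WT, 570 to 742 in Mll1-KO, 637 to 789 in Mll2-KO and 179 to 234 in the double-KO, and its departure of -0.91 was 0.0171 on the linear scale. Of the 8 genes, 3 kept their sign there, compared with all members of the other 5 patterns.

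In the 33 masked genes a single mutant differed by 2-fold or more from WT while the double-KO was within 1.5-fold. Non-additivity was positive in 26 and negative in 7, and 4 of the 33 have counts identical to another gene model. Myh11, smooth muscle myosin (chr16:14194535-14291372), was at 256, 196 and 217 in WT, 232, 223 and 276 in Mll1-KO, 63.7, 79.5 and 75.3 in Mll2-KO, and 245, 230 and 205 in the double-KO. Only the Mll2-KO libraries stood apart, and the double-KO was above the sum (1.498 ± 0.17, adjusted p = 2.3e-06). Cldn3, a tight junction claudin (chr5:134986214-134987472), had the same form, at 119, 140 and 183 in WT, 136, 147 and 129 in Mll1-KO, 59.8, 69.3 and 70.9 in Mll2-KO, and 134, 153 and 155 in the double-KO (1.21 ± 0.20, adjusted p = 0.00022). In Spink1, a trypsin inhibitor, Mll1-KO stood apart, at 41.7 to 76.6 in WT, 15.4 to 28.7 in Mll1-KO, 59.8 to 76.4 in Mll2-KO and 47.9 to 64.9 in the double-KO, and the call was lost without the third WT library (adjusted p = 0.055). Tenm2, a teneurin adhesion protein, was raised in Mll1-KO, at 19 to 24.4 in WT, 44.9 to 60.7 in Mll1-KO, 13.1 to 24.5 in Mll2-KO and 10.1 to 18.4 in the double-KO (-1.56).

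Gene groups were then read by list, as the number called above and below the sum among the members tested, beside 7.59% above and 6.05% below over all genes. In the retinoic acid pathway, which turns retinol into a ligand for nuclear receptors, 4 of 21 were above and 5 below (median -0.09). Rdh10, which makes retinaldehyde (chr1:16105774-16133734), was at 1040, 997 and 996 in WT, 771, 783 and 831 in Mll1-KO, 1160, 1050 and 1200 in Mll2-KO, and 1580, 1720 and 1530 in the double-KO. The double-KO lay above all other libraries and above the sum (0.86 ± 0.08, adjusted p = 1.2e-07). Aldh1a2, which makes retinoic acid from it (chr9:71215789-71296243), was at 380, 393 and 470 in WT, 665, 685 and 641 in Mll1-KO, 46.1, 47.9 and 41.5 in Mll2-KO, and 40.3, 30.7 and 39.9 in the double-KO. Mll1 loss changed Aldh1a2 by 0.68 with MLL2 present and by -0.29 in its absence (-0.97 ± 0.17, adjusted p = 0.00055). The retinoid binding protein Crabp1 was at 213 to 229 in WT, 217 to 257 in Mll1-KO, 127 to 157 in Mll2-KO and 72.1 to 92.9 in the double-KO, below its expectation of 150.2 (-0.82). Nrip1, a nuclear receptor corepressor, was slightly above the sum (0.29).

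In the Hox clusters, classical targets of MLL1 and retinoic acid, 2 of 10 genes were called above and 1 below the sum in cluster A, 2 of 10 above in B and 1 of 7 above in C. None of 7 was called by limma in D, where 1 passed an unadjusted p of 0.05 (below the sum) and neither edgeR nor DESeq2 called any. Cluster medians of non-additivity ran from -0.21 to -0.02, although the medians of the double-KO change itself ran from -0.98 to -0.42. Hoxa7 (chr6:52214491-52221854) was at 133, 153 and 140 in WT, 124, 90.5 and 123 in Mll1-KO, 81.3, 87.6 and 72 in Mll2-KO, and 38.1, 27.6 and 38.8 in the double-KO. It lay below the sum (-0.85 ± 0.23, adjusted p = 0.017), a call lost without the second Mll2-KO library (adjusted p = 0.053). Of 11 Hox partners Pbx3 was called (-0.66).

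Pluripotency genes departed in both directions, with 5 of 22 above and 2 below in the naive and core list and 2 of 15 above and 3 below in the formative list. Dppa4, a nuclear factor of pluripotent cells (chr16:48283733-48294237), was at 291, 338 and 311 in WT, 264, 250 and 248 in Mll1-KO, 633, 668 and 627 in Mll2-KO, and 976, 947 and 866 in the double-KO. Loss of Mll1 changed Dppa4 by -0.30 with MLL2 present and by 0.53 in its absence (0.83 ± 0.10, adjusted p = 4.3e-06), and its neighbour Dppa2 departed by 0.80. Tfcp2l1, a transcription factor of the naive state, was at 1630 to 1710 in WT, 945 to 990 in Mll1-KO, 1400 to 1520 in Mll2-KO and 578 to 654 in the double-KO, below the sum (-0.50). Summed over 5 pluripotency markers, levels were 2850 to 4040 in WT, 1370 to 1700 in Mll1-KO, 5380 to 6310 in Mll2-KO and 2900 to 2970 in the double-KO. These are bulk samples, so fewer cells of a type and less RNA per cell cannot be told apart, and the part of such shifts in the gene results was not tested.

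Fibroblast genes departed upward: 8 of 14 were above the sum, with a median of 0.48, and none was below it by limma at an unadjusted or adjusted p of 0.05 or by edgeR or DESeq2. Median changes of the list were 0.22 in Mll1-KO, -0.09 in Mll2-KO and 0.82 in the double-KO. Besides Acta2, Dcn, a collagen-binding proteoglycan (chr10:97479609-97518143), was at 217, 181 and 178 in WT, 221, 186 and 216 in Mll1-KO, 155, 152 and 185 in Mll2-KO, and 282, 307 and 339 in the double-KO. The other 3 groups overlapped and the double-KO lay above them (0.80 ± 0.16, adjusted p = 0.0012). The summed level of 5 fibroblast markers was 5950 to 6550 in WT, 8350 to 9110 in Mll1-KO, 6940 to 7970 in Mll2-KO and 14500 to 15300 in the double-KO, with 4 of the 5 over 10 in all groups. The markers Col1a1, Col3a1 and Postn are also among the 8 genes called above the sum, so the marker sum is no separate observation. The part of fibroblast cells in the genes raised only in the double-KO was not tested.

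In neural crest genes 3 of 12 were below the sum (median -0.38), and in mesoderm genes 3 of 21 (median 0.05), with Mef2c the largest. Above the sum limma called none in either list (1 and 3 at an unadjusted p of 0.05), DESeq2 none, and edgeR 1 mesoderm gene. Mesothelial genes were below the sum in 3 of 10 and above in 1. Wt1, the transcription factor of mesothelium and kidney (chr2:105126529-105173616), was at 960, 914 and 852 in WT, 1410, 1370 and 1460 in Mll1-KO, 509, 502 and 477 in Mll2-KO, and 526, 446 and 526 in the double-KO. As for Aldh1a2, the rise in Mll1-KO (0.64) was not seen in the absence of MLL2 (0.01; non-additivity -0.63 ± 0.09, adjusted p = 4.6e-05). The summed level of 3 mesothelial markers was 919 to 1060 in WT, 1650 to 1720 in Mll1-KO, 515 to 545 in Mll2-KO and 622 to 690 in the double-KO. Wt1 is itself 1 of these markers and makes up most of the sum, so the sum is no separate observation. The part of mesothelial cells in this was not tested.

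Among epithelial and endodermal lists, 5 of 12 trophectoderm genes were above the sum and 1 below, and 5 of 22 endoderm genes were above and 2 below. Krt7, a simple epithelial keratin (chr15:101411043-101430313), was at 1170, 1230 and 1220 in WT, 992, 964 and 1140 in Mll1-KO, 463, 460 and 512 in Mll2-KO, and 1140, 1100 and 1150 in the double-KO. Mll2-KO stood apart, while the double-KO overlapped Mll1-KO and lay just below WT (1.47 ± 0.09, adjusted p = 3.7e-11). Summed endoderm markers were 11000 to 11500 in WT, 6750 to 7060 in Mll1-KO, 14100 to 14800 in Mll2-KO and 9050 to 9670 in the double-KO. Among neural genes 3 of 23 were above and 4 below, and Zic1, a zinc finger factor of the neural plate, was at 117 to 132 in WT, 108 to 131 in Mll1-KO, 183 to 197 in Mll2-KO and 95.1 to 116 in the double-KO (-0.83). Summed neural markers were 3610 to 4110 in WT, 4520 to 5210 in Mll1-KO, 3390 to 4180 in Mll2-KO and 6070 to 6590 in the double-KO. The mesoderm marker Mesp1 had means under 1 in every group. Of 3 feeder or blood markers 2 were in the table, with a summed level of 36.6 to 51.8 in WT, 21.1 to 36.5 in Mll1-KO, 7.64 to 13.7 in Mll2-KO and 4.48 to 6.84 in the double-KO, and of these Ptprc had means under 1 in every group. The endoderm marker Sox17 and the neural markers Nes and Tubb3 are also called genes of their lists, so those sums are not separate observations. The part of these sums in the gene results was not tested.

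Of 11 genes tested in the 2-cell-like list 6 were above the sum (median 1.5), and of 23 germline genes 6 (median 0.51). Those of the 2-cell-like list were Zscan4a, Zscan4b, Zscan4c, Zscan4d, Zscan4f and Usp17la. The Zscan4 genes among them are near-identical copies and not independent, and the calls of Zscan4a and Usp17la were lost in 14 and 13 of 24 alternatives. Below the sum limma called none in either list (0 and 1 at an unadjusted p of 0.05), DESeq2 none, and edgeR 1 germline gene. Piwil2, a germline Argonaute protein (chr14:70372477-70429383), was at 139, 129 and 121 in WT, 111, 150 and 139 in Mll1-KO, 108, 97.8 and 109 in Mll2-KO, and 207, 189 and 184 in the double-KO. The double-KO lay above all other libraries (0.85 ± 0.17, adjusted p = 0.0021). Of p53 targets 8 of 18 were above and 1 below (median 0.24). Eda2r, the ectodysplasin A2 receptor (chrX:97333840-97377216), was at 2770, 2430 and 2520 in WT, 2040, 2010 and 1960 in Mll1-KO, 2650, 2330 and 2790 in Mll2-KO, and 2960, 3050 and 3090 in the double-KO (0.59 ± 0.08, adjusted p = 1.3e-05). Its double-KO libraries were highest and its Mll1-KO libraries lowest, whereas Sesn1, a stress-induced sestrin, was below the sum (-0.53).

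In the COMPASS family list, which holds the complex partners of both proteins, 1 of 20 was called (Kmt2a), and in the DNA methylation and Polycomb list 2 of 26 were above and 3 below. Among 8 genes described before as depending on MLL2, 1 was above and 2 below. Smarca1, a chromatin remodelling ATPase (chrX:47809368-47892974), was at 561, 571 and 503 in WT, 567, 529 and 501 in Mll1-KO, 69.6, 75.4 and 72 in Mll2-KO, and 28, 16.9 and 24 in the double-KO. Mll1 loss changed Smarca1 by -0.03 with MLL2 present and by -1.64 in its absence (-1.61 ± 0.19, adjusted p = 3.6e-06). Cldn6, a claudin of early epithelia (chr17:23679249-23682446), was at 3220, 2860 and 3490 in WT, 2640, 2780 and 2840 in Mll1-KO, 1790, 1770 and 1860 in Mll2-KO, and 2530, 2700 and 2790 in the double-KO. The Mll2-KO libraries were lowest, and Mll2 loss changed Cldn6 by -0.82 with MLL1 present and by -0.04 without it (0.78 ± 0.08, adjusted p = 3.6e-07).

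**Figure D5:**
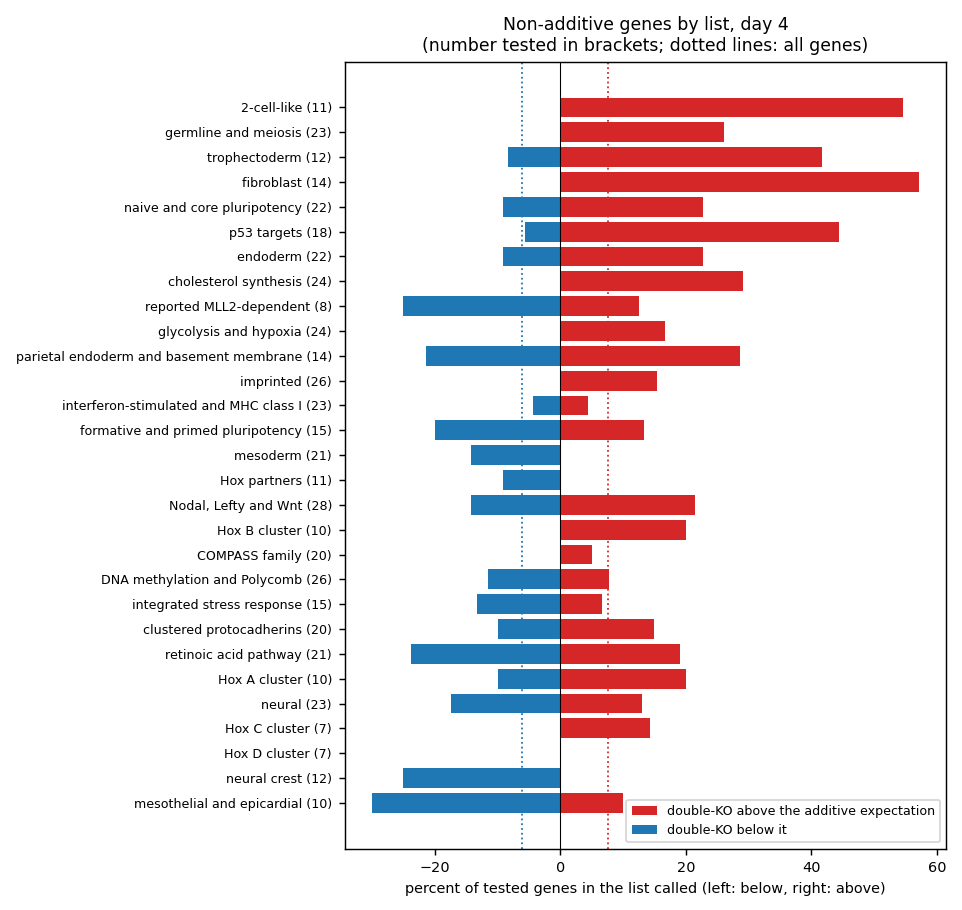
For each gene list, the percent of tested members called above or below the sum of the single-mutant changes at day 4, with the number tested in brackets and dotted lines at 7.59% and 6.05% for all genes. The fibroblast list (8 of 14) and the 2-cell-like list (6 of 11) reach far above the sum, and the mesothelial list (3 of 10) and the neural crest list (3 of 12) far below it, but many lists hold few genes. The called genes of the 2-cell-like list are mostly near-identical copies and not independent of each other.

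The same contrast was read at day 0, before retinoic acid, in libraries that had no part in sorting the genes. The day 0 WT libraries are headed WTA in the deposited data, and those of day 4 WT, and the added letter is not explained. Whether both are the same WT cells is therefore not certain, and every day 0 contrast and day difference uses them. There 1277 of 13984 genes were called (9.13%), 618 above the sum (4.42%) and 659 below (4.71%). Of the 56 lost-only genes, 51 passed the filter at day 0, 6 were called below the sum, 2 above and 43 not called. Of the 38 raised-only genes, 33 passed, 6 were called above, 1 below and 26 not called. Of 35 buffered genes that passed, 1 was called in the same direction and 1 in the other. None of the 16 opposed genes that passed was called by limma (1 at an unadjusted p of 0.05), edgeR or DESeq2.

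Single genes differed in this. Raver2 was called below the sum at day 0 as well (-0.53, adjusted p = 0.02), with means of 394, 447, 239 and 187 in WT, the MLL1 and MLL2 single mutants and the double-KO. Serpinb9b was called above it (1.24, adjusted p = 0.021), with means of 38.4, 44.4, 35.6 and 94.3 in the same order. Both thus departed in the same direction on both days. Chic1 had day 0 means of 375, 394, 445 and 467 and Hhip of 45, 78.8, 96.6 and 209, the double-KO being the highest group in each, whereas at day 4 it was the lowest.

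The change of non-additivity between days was tested over all 24 libraries and called for 1383 of 15114 genes (9.15%), 5.17% with a higher and 3.98% with a lower contrast at day 4. Called were 18 of the 56 lost-only genes, 14 of 38 raised-only, 15 of 29 opposed, 10 of 37 buffered and 12 of 33 masked. Since the day 4 values chose the members, these counts are descriptions. Lists were also set side by side: glycolysis and hypoxia genes were above the sum in 19 of 25 at day 0 and 4 of 24 at day 4, and cholesterol synthesis genes in 16 of 24 and 7 of 24. Bnip3, a mitophagy receptor induced by hypoxia (chr7:138890836-138909519), departed by 2.55 at day 0 and 0.57 at day 4, a difference of -1.97 (adjusted p = 6.1e-10). Its means were 4549, 1504, 576 and 1121 at day 0 in the order used above, where WT stood far above the mutants, while at day 4 Bnip3 was at 1320, 1170 and 1310 in WT, 730, 787 and 632 in Mll1-KO, 1520, 1630 and 1580 in Mll2-KO, and 1230, 1360 and 1390 in the double-KO.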

How the data were processed

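Polyadenylated RNA was sequenced from 24 libraries with a stranded kit, and the 12 day 4 libraries were compared. Per the submitters' processing notes, RSEM 1.3.1, STAR 2.7.10a, DESeq2 1.34.0, Trim Galore 3.4 and SAMtools 1.13 were used with mm10, in roles not given in the sources used here. The authors deposited 1 table of signal values, which are gene read counts divided by 1 size factor per library. Division by the lowest value above 0 gave whole reads for 100% of values (tolerance 1e-06), 10.7 to 17.1 M per day 4 library.

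Normalized counts were analysed as log2(value + 1) with limma 3.58.1 (R 4.3.3), with a trend and Benjamini-Hochberg adjustment over all genes reaching 10 in at least 3 libraries, called below 0.05. Patterns used called contrasts and limits of 1.5-fold and 2-fold. Lost or raised only means both singles within 1.5-fold of WT and the double-KO 2-fold or more from WT and beyond both. Opposed means that the effect of 1 loss is called in opposite directions with and without the other protein. Buffered and deeper genes move 1.5-fold or more the same way in both singles. Masked genes move 2-fold or more in 1 single and not in the double-KO.

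Named genes were the 10 (lost only, opposed, buffered) or 5 (other patterns) members with the largest non-additivity and a group mean of at least 50, passing over unnamed gene models, and up to 2 genes per list and direction; 1 gene so named is not reported here. The members and lists were chosen with earlier results of these data known. Gene positions are from GENCODE M21 (mm10; 14055 tested symbols with 1 locus) and promoters from RefSeq. edgeR 4.0.16 and DESeq2 1.42.0 on the recovered reads were alternatives. Calling was tested on simulated data. Residuals of libraries with the same replicate number correlated by -0.0328 to 0.0833, so the numbers were not taken to pair libraries.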

Additional observations from a re-analysis of the deposited data

Results flagged for a closer look

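For 51 of the genes named here, non-additivity at day 4 differed from that at day 0 by limma over all 24 libraries, each with the day 4 minus day 0 difference on the log2 scale and its adjusted p over 15114 genes. Over all genes tested 9.15% were called in this way. Most of the genes were named for their day 4 values, so the differences are descriptions.

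Among genes lost only in the double-KO at day 4, the contrast was lower at day 4 for Rnf152 (by -1.99, adjusted p = 0.015), Raver2 (by -0.964, adjusted p = 0.0049), Phf19 (by -1.6, adjusted p = 0.018), Chic1 (by -1.41, adjusted p = 0.0001), Bmerb1 (by -1.74, adjusted p = 0.0036), Dhdh (by -1.55, adjusted p = 0.0027), Hhip (by -1.55, adjusted p = 0.0055), Sfrp2 (by -1.87, adjusted p = 0.00047) and Kif26a (by -1.25, adjusted p = 6.3e-05). Just outside the 2-fold limit it was lower for Dhrs7 (by -0.97, adjusted p = 0.0013), Mppe1 (by -1.37, adjusted p = 0.033) and Igfbp4 (by -1.5, adjusted p = 0.0017). Among genes raised only, it was higher for the actins Actg2 (by 2.27, adjusted p = 0.048) and Acta2 (by 1.38, adjusted p = 0.0064) and lower for Lef1 (by -2.44, adjusted p = 3.3e-06), a Wnt effector whose day 0 contrast was larger still. Actg2 was near 0 at day 0, with means of 0.51, 1.29, 0.0 and 0.0 in WT, the MLL1 and MLL2 single mutants and the double-KO.

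Among opposed and buffered genes the contrast was higher at day 4 for Entpd3 (by 3.49, adjusted p = 0.0014), Usp17le (by 2.64, adjusted p = 0.036), Zscan4b (by 2.11, adjusted p = 0.011), Zscan4f (by 1.67, adjusted p = 0.014), Usp17la (by 2.18, adjusted p = 0.043), Zscan4c (by 1.86, adjusted p = 0.0048), Zscan4d (by 1.6, adjusted p = 0.026) and Ap1m2 (by 1.43, adjusted p = 2.5e-05). The Zscan4 and Usp17 genes are near-identical copies. The buffered Wnt target Sp5 (by -2.42, adjusted p = 0.0047) went the other way. The day 4 call of Sp5 was lost in 14 of 24 alternatives, and its day 0 mean in Mll2-KO was only 5.3. Masked genes with a higher contrast at day 4 were Myh11 (by 2.71, adjusted p = 0.012) and Cldn3 (by 0.997, adjusted p = 0.023). Myh11 did not pass the day 0 filter, with day 0 means of 4.35 in WT, 7.75 in Mll1-KO, 3.09 in Mll2-KO and 2.08 in the double-KO.

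In the retinoic acid pathway and among pluripotency genes, the contrast was higher at day 4 for Rdh10 (by 1.15, adjusted p = 0.001), Nrip1 (by 0.448, adjusted p = 0.031), Dppa4 (by 0.899, adjusted p = 7.3e-06), Dppa2 (by 0.845, adjusted p = 0.00075) and Grhl2 (by 1.17, adjusted p = 0.0031). It was lower for Aldh1a2 (by -1.43, adjusted p = 0.046), Tfcp2l1 (by -0.329, adjusted p = 0.041) and Sox3 (by -1.86, adjusted p = 0.011). In the lineage lists it was higher for Krt7 (by 1.95, adjusted p = 0.0014), and lower for Krt19 (by -2.16, adjusted p = 0.00053), Ascl2 (by -2.7, adjusted p = 0.0021), Nid2 (by -0.415, adjusted p = 0.0056) and Bmp4 (by -1.08, adjusted p = 0.0014). The day 4 calls of Sox3 and Ascl2 were each lost in 15 of 23 alternatives, and that of Bmp4 in 10 of 24.

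In the other lists it was higher for Piwil2 (by 1.06, adjusted p = 0.00096), H19 (by 2.07, adjusted p = 2.4e-09), Psat1 (by 0.361, adjusted p = 0.0086), Eda2r (by 0.883, adjusted p = 0.00029) and Ccng1 (by 0.668, adjusted p = 0.00016). It was lower for Lefty2 (by -1.23, adjusted p = 0.047), Phgdh (by -0.37, adjusted p = 0.022), Sesn1 (by -0.908, adjusted p = 0.0026), Bnip3 (by -1.97, adjusted p = 6.1e-10), Ldha (by -1.1, adjusted p = 2.1e-05), Ifitm2 (by -0.687, adjusted p = 1.1e-05) and Smarca1 (by -1.82, adjusted p = 0.0003). The day 4 call of Psat1 was lost in 15 of 24 alternatives. For H19 the day 0 mean in the double-KO was only 7.69.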

How the results depend on the processing

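The counts rest on 3 libraries per group and on genes with few reads, and masked and opposed genes are mostly of low level. Called genes numbered 2089 with edgeR (1255 above, 834 below), 1515 with DESeq2 (862, 653) and 1922 after scaling to column totals (931, 991), which lowered the share above the sum. A minimum of 50 left 18 opposed and 15 masked genes, and DESeq2 gave 17 opposed, 5 deeper and 20 masked. With the spread estimated over all 24 libraries there were 1000 called genes (565 above, 435 below), with 23 raised only, 18 buffered and 1 deeper. On the linear scale 37 genes were lost only and 72 buffered. Fold limits of 1.2 and 1.5 gave 108 opposed, 67 buffered and 33 deeper genes, and limits of 2 and 3 gave 32 lost only, 9 raised only, 7 opposed, 18 buffered, 2 deeper and 12 masked. edgeR on 11 libraries, chosen after seeing the data because 1 size factor lies near 1, gave 24 buffered.

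Leaving out 1 library gave 1269 (second Mll2-KO) to 2092 called genes, 704 to 1163 above and 565 to 929 below the sum, 44 to 60 lost only, 29 to 38 raised only, 22 to 38 opposed, 21 (second WT) to 35 buffered, 5 (second Mll2-KO) to 8 deeper and 20 (second WT) to 40 masked, and 862 to 1462 at day 0. With the replicate number as a block 1800 genes were called (1005 above, 795 below), with 55 lost only, 37 raised only, 33 opposed, 35 buffered, 8 deeper and 30 masked. Of the 56 lost-only genes, 51 were lost only with edgeR, 38 with DESeq2, 29 after quantile scaling and 37 with all 24 libraries.

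For 123 named genes, 2940 values under the alternatives kept their call or lack of one, without reversal of a called gene, in 2564, lost the call in 369 and reversed for called genes in 7, all 7 on the linear scale: Kmt2a -0.15, Sfrp5 0.0171, Rbp4 1.02, Prxl2a 0.33, Srgn -0.17, Lefty2 -0.13 and Ifit2 -0.12 of the mean level. A sum on the linear scale is another definition of additivity. No alternative ended a call or reversed a called gene for 49 of the 123. These include Magohb, which was never called and ran from -0.26 to 0.26, with either sign.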

Other observations

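Imprinted genes were called above the sum in 4 of 26, and none below by limma at an adjusted or unadjusted p of 0.05, edgeR or DESeq2. H19, a maternally expressed noncoding RNA (chr7:142575529-142578143), was at 10300, 11900 and 11400 in WT, 541, 543 and 558 in Mll1-KO, 8700, 8950 and 8020 in Mll2-KO, and 768, 687 and 703 in the double-KO. It fell far in both groups without MLL1, and the double-KO libraries lay slightly above those of Mll1-KO (log2 difference 0.39, adjusted p = 1e-06). Its non-additivity was 0.78 ± 0.08, adjusted p = 2e-07. Sgce, the paternally expressed epsilon-sarcoglycan, was at 836 to 945 in WT, 745 to 852 in Mll1-KO, 386 to 463 in Mll2-KO and 533 to 556 in the double-KO (0.56). In the Nodal, Lefty and Wnt list 6 of 28 were above and 4 below, and Inhba, an activin subunit, was at 19 to 27.1 in WT, 43 to 46.3 in Mll1-KO, 12.2 to 16.7 in Mll2-KO and 59.3 to 85.8 in the double-KO (1.29). Among clustered protocadherins, whose isoforms share exons so that counts between them are uncertain, 3 of 20 were above and 2 below. Pcdhga7 was at 188 to 232 in WT, 252 to 328 in Mll1-KO, 128 to 160 in Mll2-KO and 74.1 to 101 in the double-KO.

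In cholesterol synthesis 7 of 24 were above the sum, and Insig1, the sterol sensor partner (chr5:28071363-28078662), was at 1480 to 1570 in WT, 863 to 896 in Mll1-KO, 1970 to 2140 in Mll2-KO and 1700 to 1840 in the double-KO (0.57). In the integrated stress response 1 of 15 was above and 2 below, and Phgdh, the first enzyme of serine synthesis, was at 1810 to 2110 in WT, 1950 to 2090 in Mll1-KO, 1910 to 2140 in Mll2-KO and 1480 to 1500 in the double-KO (-0.47), lowest in the double-KO. Of interferon-stimulated genes 1 of 23 was above and 1 below, and Ifitm2 was at 2580 to 2830 in WT, 3510 to 3610 in Mll1-KO, 2580 to 2880 in Mll2-KO and 2680 to 2750 in the double-KO (-0.38), raised in Mll1-KO and not in the double-KO. In the parietal endoderm and basement membrane list 4 of 14 were above and 3 below, and Thbd, thrombomodulin, was at 108 to 119 in WT, 115 to 118 in Mll1-KO, 52 to 63.3 in Mll2-KO and 138 to 151 in the double-KO (1.27). With 1 estimate of spread over all 24 libraries the calls of Inhba, Insig1 and Thbd were lost (adjusted p = 0.16, 0.12 and 0.12).

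The neighbourhood of Xist was chosen after its values were seen. Of 7 other genes tested within 500000 bases, 5 were called lower in the double-KO than in WT (23.3% over all genes) and 1 (Rlim) higher (27.6%). Non-additivity was called for 4 of the 7 (13.6% over all genes), among them Chic1, already described as lost only in the double-KO. With so few genes, picked in this way, the counts are descriptions only. Means in WT, the MLL1 and MLL2 single mutants and the double-KO were 155, 144, 65.9 and 29.6 for Nap1l2, and 400.1, 392, 371 and 137 for Chic1. They were 35.1, 21.5, 44.4 and 15.8 for Tsix, which overlaps Xist, and 10.9, 14.0, 6.13 and 2.53 for Jpx. Over 506 X-linked genes tested, the median double-KO change was -0.06, beside 0.03 over all genes, and 75 (14.8%) were non-additive.

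Gm2274 and Gm2260 on chromosome 14, also chosen after their values were seen, are unprocessed pseudogenes annotated near each other. Gm2274 had means of 0, 131, 123 and 0 in that order of groups, and Gm2260 of 147, 1.87, 52.4 and 145. In WT, Mll1-KO and the double-KO the level of 1 was high where that of the other was low, whereas in Mll2-KO both were present. How reads were divided between such copies is uncertain.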
